A study of Mus musculus with 24 samples.

Results

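The regions described here were open in cultured epidermal stem cells (EpdSCs) kept without doxycycline (DOX) and had no peak in any of 6 DOX-treated cultures. Peaks of the 7 culture lists were merged where they overlapped by at least 1 bp, and a region was kept when the noDOX list had a peak in it and none of the 6 DOX arms did. This left 1364 of the 52401 regions with a noDOX peak, 2.60% of them (95% Wilson interval 2.47 to 2.74%), out of 97078 regions in the merged culture set. The members were therefore chosen by the measured peaks of these same 7 lists, so that their absence from the 6 arms is the rule and not a result. The label "closed" means only that no peak reached the deposited minimum score of 3 in an arm.

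The study asked how SOX9 redirects EpdSCs towards a hair follicle fate, and ATAC-seq was carried out on 24 samples in 12 groups of 2. The authors called peaks on the merged alignments of both replicates. Each group is therefore 1 peak list, no spread between replicates can be given and no comparison below carries a test. The noDOX cells carried K14rtTA and TRE-myc-Sox9, and the WT-SOX9 arm had the same genotype with DOX at 1 µg per ml. The other arms, all with K14rtTA and the same DOX dose, carried TRE-myc-Sox9noHMG (ΔHMG-SOX9, which lacks the DNA-binding HMG domain), TRE-myc-Sox9noTA (ΔTA-SOX9, which lacks the transactivation domain), TRE-FLAG-AFOS (AFOS, a dominant-negative FOS), TRE-myc-Sox9 with TRE-FLAG-AFOS (SOX9+AFOS), or TRE-myc-Sox9 with TRE-ARID1a (SOX9+ARID1a). All cultures were keratinocytes from the back skin of male CD1 mice, and the K14 promoter limits rtTA to cells that use it. Per the study's methods, primary EpdSCs with K14rtTA and TRE-myc-Sox9 were isolated from newborn males. Culture and the D0 to W6 skin lists described below therefore also differ in donor age. A DOX day of 3 is given for some of the DOX samples only. Per the study's methods, lentivirus brought the 3 SOX9 versions into K14rtTA cells, and AFOS or ARID1a into K14rtTA cells or cells that already had K14rtTA and TRE-myc-Sox9. Puromycin selection followed. No DOX-treated list without a transgene was used here. What all 6 arms share is thus DOX, induction and a transgene product, which cannot be told apart. The noDOX cells are labelled day 0 where a day is given, so days in culture may differ too. That difference cannot be told apart from the others either. The skin lists, which took no part in choosing the members, came from sorted EpdSCs of K14rtTA; TRE-myc-Sox9 males at postnatal day 21 (D0), 28 (W1), 35 (W2) and 63 (W6), and from grafts on host mice at W12. Per the labels and methods, DOX was injected at postnatal day 21 and then given in the chow, so W1, W2 and W6 count the weeks of SOX9 induction after D0. For W12, skin of newborn pups was grafted onto immunocompromised hosts, and DOX was given to the hosts once the grafts had healed. Age, DOX and SOX9 change together from D0 to W6 and cannot be told apart, and W12 also differs by grafting.

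An ATAC-seq peak marks DNA that the Tn5 transposase can reach, which in most cells means promoters, enhancers and insulator sites that are free of nucleosomes. In EpdSCs many distal enhancers hold sites for AP1 (dimers of JUN and FOS proteins), p63, GATA3 and GRHL factors, and their nucleosomes are moved by the SWI/SNF remodeller, of which ARID1a is a subunit. SOX9 is a pioneer factor of the hair follicle that can bind nucleosomal DNA, and AFOS pairs with JUN and keeps AP1 off DNA.

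The sequences of 6 members are shown because they belong to the members with the highest peaks: the first 3 are those with the highest noDOX scores, and the last 3 those with the highest D0 skin scores, among members with a motif match. Each is the central 200 bp of the noDOX peak on the plus strand of GRCm38, read from the RefSeq sequence of that build, with matches in capitals. The words sought on both strands were TGACTCA for AP1, ACAATGG for SOX (ACAATAG was counted too), AGATAA for GATA factors, TGTGGT for RUNX, GGAATG for TEAD, GGGCGG for SP/KLF, CCGGAAG for ETS, TTGCNNAA for C/EBP, AACCGGTT for GRHL (AACTGGTT was counted too) and CACGTG for the E-box, together with a TP63 and a CTCF consensus. No word contains another. In order, the capitals mark TEAD, then TEAD and CTCF, SP/KLF, TEAD and C/EBP, AP1, and TEAD and C/EBP.
Fgf14 region, chr14:124489092-124489291: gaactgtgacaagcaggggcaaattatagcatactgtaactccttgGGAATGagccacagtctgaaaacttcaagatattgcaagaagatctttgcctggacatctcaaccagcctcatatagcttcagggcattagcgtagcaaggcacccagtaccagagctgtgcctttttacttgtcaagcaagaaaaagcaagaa
Gas1 region, chr13:60045037-60045236: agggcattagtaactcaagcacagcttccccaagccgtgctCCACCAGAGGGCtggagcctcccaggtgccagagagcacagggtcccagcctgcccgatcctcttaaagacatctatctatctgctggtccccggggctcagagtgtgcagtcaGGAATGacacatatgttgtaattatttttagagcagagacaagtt
Nsun3 region, chr16:62758421-62758620: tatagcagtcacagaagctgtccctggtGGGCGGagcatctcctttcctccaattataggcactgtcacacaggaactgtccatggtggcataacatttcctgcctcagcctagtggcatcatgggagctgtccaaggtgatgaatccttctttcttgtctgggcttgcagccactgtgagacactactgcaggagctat
Pard3b region, chr1:61540092-61540291: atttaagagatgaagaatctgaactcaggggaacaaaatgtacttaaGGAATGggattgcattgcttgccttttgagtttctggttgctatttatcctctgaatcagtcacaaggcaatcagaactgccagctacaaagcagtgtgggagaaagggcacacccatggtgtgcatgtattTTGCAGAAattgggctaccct
Slc38a11 region, chr2:65453890-65454089: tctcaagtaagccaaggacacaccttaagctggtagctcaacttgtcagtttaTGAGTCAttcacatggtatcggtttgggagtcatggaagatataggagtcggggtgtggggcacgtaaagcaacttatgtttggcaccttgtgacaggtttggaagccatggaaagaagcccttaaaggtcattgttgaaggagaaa
Inhbb region, chr1:119302504-119302703: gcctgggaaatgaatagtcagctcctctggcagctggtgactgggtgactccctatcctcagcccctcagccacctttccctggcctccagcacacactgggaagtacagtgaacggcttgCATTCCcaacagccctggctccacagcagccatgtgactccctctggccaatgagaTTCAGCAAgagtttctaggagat

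Most members were weak peaks. The deposited peak score, which the authors normalised for depth and cut at 3, had a median of 3.79 in the 1364 members (quartiles 3.31 and 4.49, highest 17.8) against 11.4 in the other 51037 noDOX regions. A score under 5 was found in 1151 members (84.4%) and under 4 in 816 (59.8%), against 19.3% and 10.3% of the other regions. Only 7 members had a score of 10 or more. The member peaks were also narrow, with a median width of 279 bp against 524 bp, and together covered 0.442 Mb of the 31.6 Mb under noDOX peaks. How far scores share a scale between lists, culture and skin above all, is not given in the sources used here, so values from different lists are set side by side only. The part of weak calls in the rule was not tested. Score values or bands are given beside many results below. Shares by gene list and chromosome, and gaps to other peaks, were not set at equal score.

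The share of noDOX regions closed in all 6 arms fell from band to band of the noDOX score. It was 13.5% at a score of 3 to 4 (816 of 6049), 6.78% at 4 to 5 (335 of 4939), 2.26% at 5 to 7 (154 of 6812), 0.772% at 7 to 10 (52 of 6733) and 0.0588% at 10 to 20 (7 of 11912). None of the 15956 regions with a score of 20 or more was closed in all 6 arms, and the 95% Wilson interval reached 0.0241%. The median noDOX score also went down with each further closed arm, from 23.9 in the 24536 regions closed in no arm to 9.95, 6.67, 5.08, 4.55 and 4.04 in those closed in 1, 2, 3, 4 and 5 arms. The members stood at the end of that series.

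**Figure D1:**
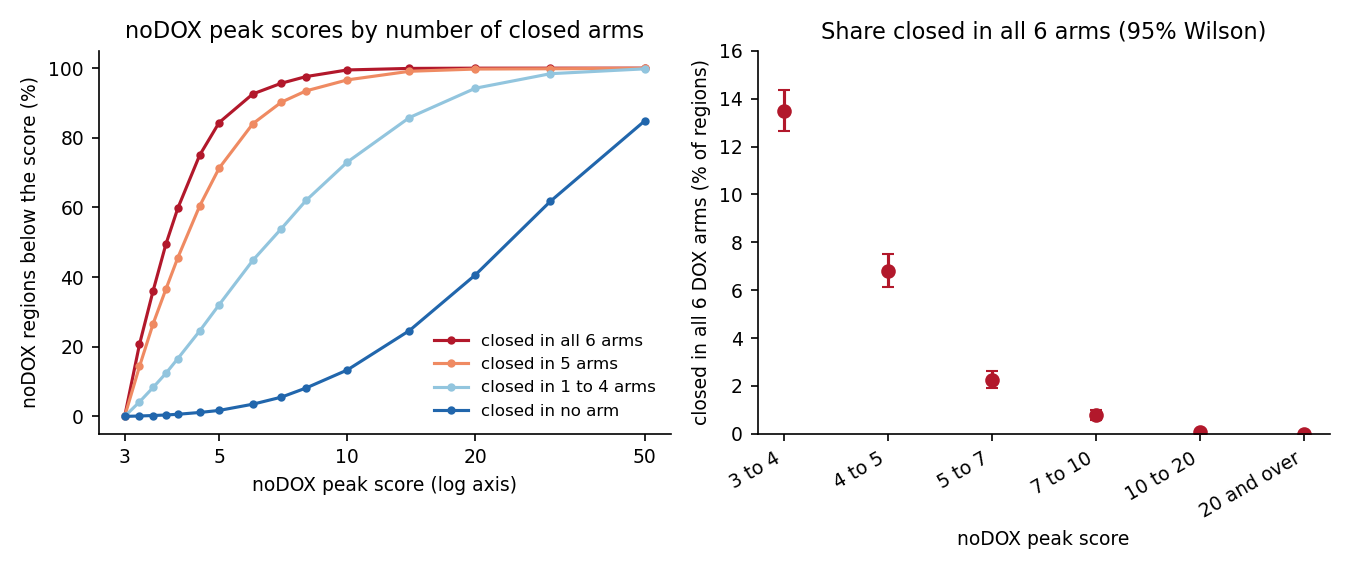
Left, the percent of noDOX regions below a given noDOX peak score (log axis) for regions closed in all 6 arms, in 5, in 1 to 4 and in none. Right, the percent of noDOX regions closed in all 6 DOX arms by noDOX score band, with 95% Wilson intervals: it goes from 13.5% at a score of 3 to 4 down to 0 of 15956 at 20 and over.

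Each arm by itself lacked many weak noDOX regions, which describes the peaks that the rule used. Of the 6049 regions with a noDOX score of 3 to 4, 70.1% had no peak in WT-SOX9, 57.0% in ΔHMG-SOX9, 55.0% in ΔTA-SOX9, 51.2% in AFOS, 68.3% in SOX9+AFOS and 58.0% in SOX9+ARID1a. Of the 15956 regions with a score of 20 or more, 0.357 to 1.03% were missing in WT-SOX9, ΔHMG-SOX9, ΔTA-SOX9, AFOS or SOX9+ARID1a, and 7.27% in SOX9+AFOS. The arms share 1 noDOX list, so these shares are not independent of each other.

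Just inside the rule, 213 members had a noDOX score under 3.1. Just outside it were 2344 regions closed in 5 of the 6 arms, and in 135 of them the arm peak that kept the region out scored under 3.1. The arm that kept the peak was SOX9+ARID1a for 811 of these regions (34.6%), ΔTA-SOX9 for 434, SOX9+AFOS for 339, WT-SOX9 for 283, AFOS for 261 and ΔHMG-SOX9 for 216. The median score of that 1 peak was 5.36 in SOX9+ARID1a and 3.76 in AFOS, with the other arms in between. The regions just outside differed in sequence by the arm that kept them: the AP1 word stood in 37.1% of those kept by SOX9+ARID1a, 35.2% by AFOS, 34.6% by ΔTA-SOX9, 19.0% by ΔHMG-SOX9, a little less by WT-SOX9 and 4.42% by SOX9+AFOS, against 26.0% of the members.

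Every culture list had regions of its own, and noDOX was among those with the fewest. Regions found in 1 list and in none of the other 6 made up 2.60% of the noDOX regions, 11.3% in WT-SOX9 (5864), 2.06% in ΔHMG-SOX9 (1041), 8.62% in ΔTA-SOX9 (4886), 6.98% in AFOS (4100), 11.5% in SOX9+AFOS (5518) and 5.21% in SOX9+ARID1a (2840). Their median scores lay between 3.71 in ΔHMG-SOX9 and 5.03 in WT-SOX9, so the members were not alone in being weak. The lists also differed in skin overlap. A D0 skin peak overlapped 33.9% of the regions found in noDOX alone but 6.20 to 17.3% of those found in 1 DOX arm alone. Regions found in 1 arm alone lack a noDOX peak by definition, so the sets are unlike by construction. The D0 share was 61.0% over all noDOX regions and 38.3% in those closed in 5 arms. With only scores under 5 kept, the D0 share was 33.0% in noDOX (380 of 1151, 30.4 to 35.8%), 15.9% in ΔHMG-SOX9 (148 of 930, 13.7 to 18.4%), 15.5% in SOX9+AFOS, 15.4% in SOX9+ARID1a, 11.1% in ΔTA-SOX9, 7.94% in WT-SOX9 and 6.81% in AFOS. Those intervals do not overlap between noDOX and any arm. Other noDOX regions had a D0 peak in 32.1% at a score of 3 to 4 and 36.1% at 4 to 5. The 33.0% of the members was thus close to the share of other weak noDOX regions. The same order of noDOX above all 6 arms held for W12, at 40.1% against 9.78 to 24.4%. Beside other noDOX regions the members were lower at W12. The shares were 39.6% against 47.3% at a score of 3 to 4 and 41.5% against 51.7% at 4 to 5. The intervals cover counting error only, and neither culture replicates nor mice enter them.

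**Figure D2:**
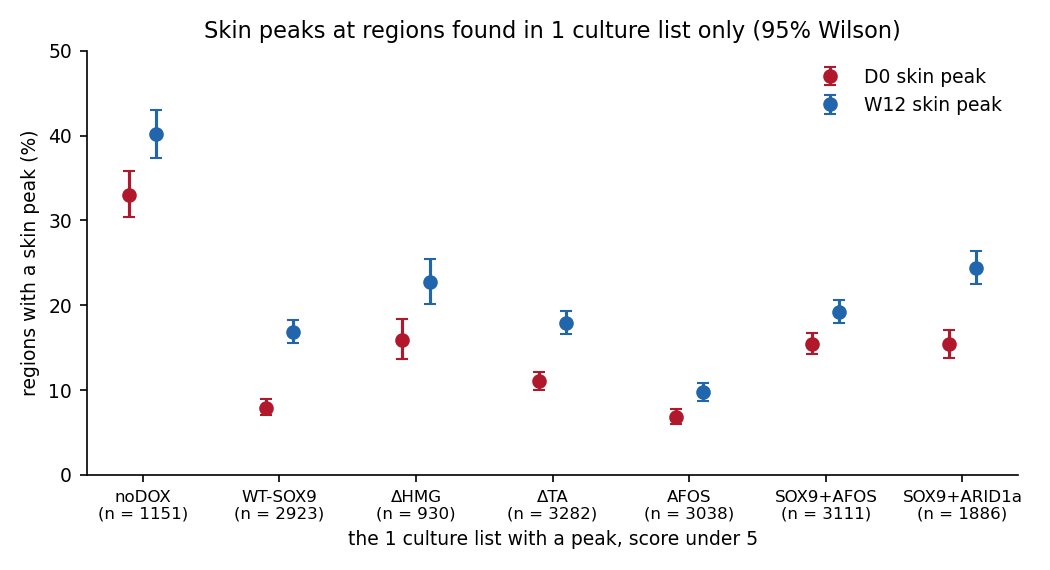
Percent of regions found in 1 culture list only, with a score under 5 there, that overlapped a D0 (red) or W12 (blue) skin peak, with 95% Wilson intervals and the number of regions under each list. The noDOX points, at 33.0% and 40.1%, lie above those of all 6 DOX arms. Other noDOX regions with a score of 3 to 4, not drawn, had 32.1% and 47.3%.

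Because the skin lists were not used by the rule, they show where the members were open in tissue. The D0 list had a peak in 463 members (33.9%), W1 in 444 (32.6%), W2 in 451 (33.1%), W6 in 580 (42.5%) and W12 in 567 (41.6%), and these peaks had median scores of 8.70, 8.62, 7.38, 6.85 and 7.05. Over all noDOX regions the background share was 61.0% for the D0 list and 60.0% for W1, then 64.8% (W2), 72.7% (W6) and 74.6% (W12). Members thus lay below the background in each of the 5 lists. Much of that gap was not seen at equal noDOX score: at a score of 3 to 4, a D0 peak overlapped 32.0% of the members (28.9 to 35.3%) and 32.1% of the other regions (30.9 to 33.4%). At the later times a gap remained in this band, with 30.9% against 35.9% at W2, 39.6% against 46.7% at W6 and 39.6% against 47.3% at W12, and the intervals of members and other regions did not overlap at W2, W6 or W12. At W1 they did, at 30.8% against 33.3%. The lists that stood apart changed with the band. At a score of 4 to 5 the intervals overlapped for D0, W1, W2 and W6 and were apart for W12 only (41.5% against 51.7%). At 5 to 7 they overlapped for D0 and were apart for the other 4 lists, with 35.1% against 44.4% for W1 and 48.1% against 60.0% for W12.

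**Figure D3:**
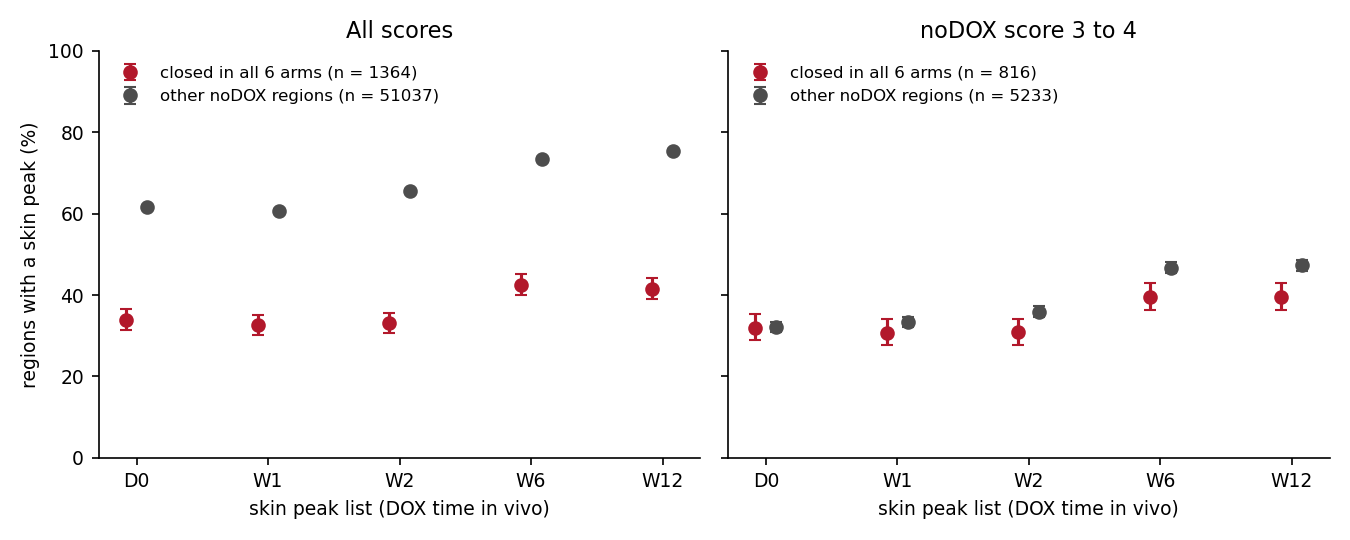
Percent of members (red) and of the other noDOX regions (grey) that overlapped a peak of each skin list, with 95% Wilson intervals, over all scores (left) and at a noDOX score of 3 to 4 (right). At equal score the D0 points coincide near 32%, while at W12 the members stand at 39.6% and the other regions at 47.3%.

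A skin peak in at least 1 of the 5 lists overlapped 750 members, and 614 (45.0%) had none, against 18.2% of the other regions without one. At a noDOX score of 3 to 4 most of that gap was gone, with a skin peak in 52.7% of members (49.3 to 56.1%) and 60.3% of other regions (58.9 to 61.6%). The most common pattern among members with a skin peak was presence in all 5 lists, in 290 (21.3%, against 52.6% of the other regions). Next came W6 alone in 64 (4.69% against 1.82%), then W2, W6 and W12 in 50 (3.67% against 5.35%), and W12 alone in 44 (3.23% against 3.09%). These shares were not set at equal score. Members with no skin peak had a median GC content of 46.5% in the central window, and 12.4% of them were at least 50% soft-masked as repeat in the reference. Of the members with a D0 peak, 3.46% were soft-masked to that extent. They also lay more often within 1 kb of a transcription start site (TSS), at 16.8% against 3.91%. The other noDOX regions showed a contrast in the same direction. Without a skin peak, 6.18% of them were soft-masked and 2.36% near a TSS. With a D0 peak these shares were 2.06% and 33.8%. Over all skin classes, 8.36% of members and 3.29% of other regions were soft-masked to that extent. At a noDOX score of 3 to 4 it was 8.33% (6.63 to 10.4%) and 4.85% (4.30 to 5.47%), beside 6.08% of regions closed in 5 arms. The intervals were also apart at 7 to 10 and overlapped at 4 to 5 and 5 to 7.

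Members that were open in D0 skin lost their peak at W2 more often than the background. Of the 463 with a D0 peak, 107 had none at W2, or 23.1% (19.5 to 27.2%), against 7.37% over all noDOX regions with a D0 peak. The D0 peaks of members were weaker than those of the other regions, with median scores of 8.70 and 15.6. At a noDOX score under 5 the members (23.7%, 90 of 380) and the other regions (20.1%, 674 of 3346) came closer, and their intervals overlapped. With both scores held, the shares were alike for weak D0 peaks, at 36.9% of members and 37.6% of others for a D0 score of 3 to 5. For a D0 score of 5 to 10 they were 27.5% (33 of 120, 20.3 to 36.1%) and 20.1% (233 of 1162, 17.8 to 22.5%), with overlapping intervals. The intervals did not overlap for a D0 score of 10 to 20, where 17 of 100 members (17.0%, 10.9 to 25.5%) and 49 of 759 other regions (6.46%, 4.92 to 8.43%) had lost the peak. At a D0 score of 20 or more they were 2 of 57 and 10 of 409. The intervals were apart in 1 of these 4 bands, which was singled out after its values were seen. Of the 107 members without a W2 peak, 22 also had none at W6 and W12, beside 431 of the 2246 other regions without one.

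**Figure D4:**
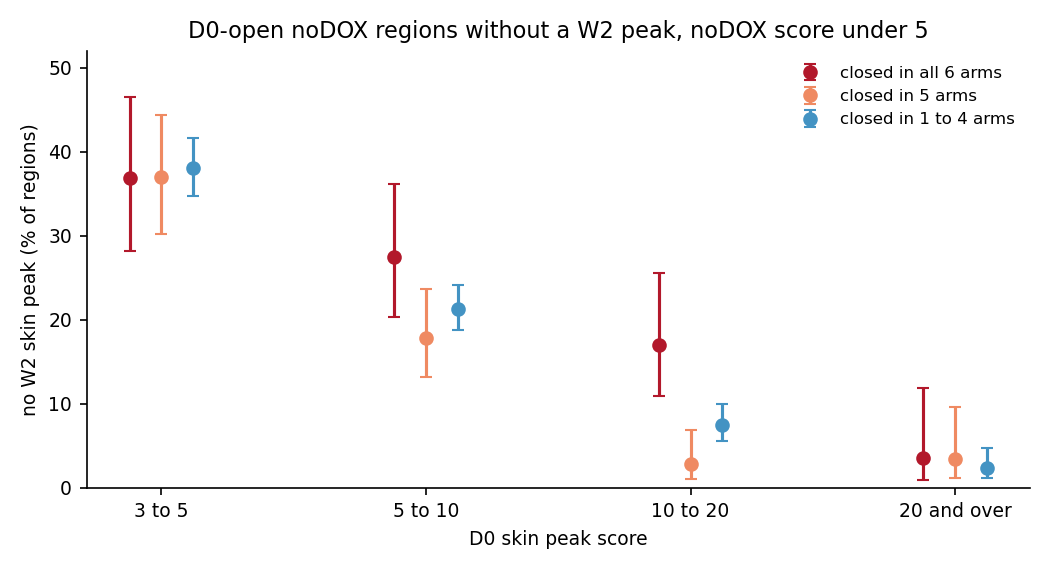
Percent of D0-open noDOX regions (noDOX score under 5) with no W2 skin peak, by D0 score, for regions closed in all 6, in 5 and in 1 to 4 arms, with 95% Wilson intervals. The interval of the members clears both others only at a D0 score of 10 to 20, at 17.0%.

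The 5 members with the strongest D0 peak that was missing at W2 lay nearest to Olfr721-ps1, Atp11a, Zfp931, BC117090 and Cd2ap. At Atp11a, which encodes a phospholipid flippase, the member chr8:12757671-12757898 lay in an intron 769 bp from a TSS and scored 3.01 without DOX, 26.2 at D0 and 28.5 at W1, with no peak at W2, W6 or W12. Its skin peak was thus absent from W2 onwards. The Olfr721-ps1, Zfp931 and BC117090 members had peaks again at W12 (27.7, 8.92 and 4.42). SOX9+AFOS peaks lay 424 bp from the Atp11a member and 431 bp from the Cd2ap member. This ranking and the one by W2 score below were chosen later. At Cd2ap, an adaptor of actin and junctions, the intergenic member chr17:42934906-42935303 scored 4.20 without DOX and 16.1, 8.24, 3.61 and 3.90 at D0, W1, W6 and W12, and held the AP1, GATA and RUNX words. In the reverse direction, 95 of the 901 members without a D0 peak had one at W2 (10.5%, 8.70 to 12.7%), against 21.9% of the other regions and 13.5% (11.8 to 15.3%) of those closed in 5 arms. At a noDOX score of 3 to 4 the members and the other regions had 9.73% (7.53 to 12.5%) and 15.5% (14.3 to 16.7%). The intervals overlapped at 4 to 5 (26 of 216 against 517 of 2940) and at 5 to 7 (11 of 97 against 740 of 3779). Among the 50 members with no D0 or W1 peak and with peaks at W2, W6 and W12, the one with the highest W2 score was intergenic, 337818 bp from Cited2, a transcriptional co-regulator, at chr10:17385263-17385537, with scores of 4.29 without DOX, 26.6 at W2, 18.5 at W6 and 4.35 at W12.

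Of the 20 members with the highest noDOX score, 8 had a D0 peak, beside 52.7% of the other noDOX regions at a score of 7 to 10 and 66.2% at 10 to 20. The highest of all, chr12:54713985-54714487, lay 18339 bp from Eapp and scored 17.8 without DOX, 14.5 at D0 and 12.7 at W12, with no peak at W1, W2 or W6. The nearest peak of any arm was 3126 bp away, in AFOS. Next came chr15:31869803-31870314 near Fam173b (13.8, with no skin peak) and chr7:117256751-117257279, which lay 123964 bp from Xylt1, a xylosyltransferase that starts proteoglycan chains. That member scored 12.3 without DOX and 33.4, 25.9, 19.3, 19.9 and 20.8 from D0 to W12, so it was open in all 5 skin lists while the closest arm peak lay 46342 bp off. The member near Gas1, a surface protein of Hedgehog and growth arrest signalling, at chr13:60044827-60045446 (CTCF and TEAD in the sequence above), scored 10.6 without DOX and 31.3, 34.4, 23.7, 17.1 and 24.4 in skin. The member in an intron of Sytl3, chr17:6661242-6661780, scored 11.8 and was also found in all 5 skin lists, at 3.97 to 15.0. The member in an intron of Fgf14, chr14:124489009-124489374, scored 11.8 and had no skin peak, nor an arm peak within 314555 bp.

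The remaining members of the top 20 lay nearest to Gm14418, Cntnap5a, Nsun3, Orm2, Haao, Dapk1, Gramd3, Irx1, Pfkfb3, Slco6c1, Eapp again, Fzd10, Efna5 and Cftr, with scores from 10.1 down to 8.68. Haao (9.52) and Dapk1 (9.49), a death-associated kinase, were near members open in all 5 skin lists. The Cftr member, chr6:18170396-18170824, was centred 77 bp from a TSS of that chloride channel gene and scored 8.68 without DOX, 8.79 at D0 and 6.33, 9.56 and 3.79 in the W1, W2 and W12 lists. The gap to the nearest arm peak was 510 bp there, in ΔTA-SOX9. The central 200 bp of those near Cntnap5a and Pfkfb3 were soft-masked throughout.

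Ranked by D0 score instead, the 10 leading members had low noDOX scores. They scored between 3.07 and 5.08 without DOX and between 47.9 and 78.0 at D0, and each had a peak in all 5 skin lists. The first lay in an intron of Ddr2, a collagen receptor, at chr1:170058075-170058272, with scores of 3.07 without DOX and 78.0, 48.4, 31.5, 28.5 and 31.5 from D0 to W12. The second was centred 32 bp from a TSS of Platr25 on chromosome 13 (3.79 without DOX, 63.6 at D0). The member 98632 bp from Pard3b, a polarity gene, stood at 4.55 without DOX and went from 63.4 at D0 to 47.5, 17.8, 6.85 and 13.3. The member near Slc38a11, an amino acid transporter, whose sequence holds the AP1 word, scored 4.04 without DOX and 63.4, 35.4, 38.5, 19.5 and 34.5 in skin. By contrast, the member in an intron of Trpm3, a cation channel, scored 3.07 without DOX and had its highest value at W2 (74.3, against 61.9 at D0). So did the members near Inhbb, an activin subunit (4.69 without DOX, 54.0 at D0 and 56.8 at W2), and in an intron of Inpp4b, a lipid phosphatase (5.08, 47.9 and 69.4). The members near C1qtnf7 (50.8 at D0) and in an intron of Dlc1 (50.5) also belonged to these 10. Another of the 10, near the AP1 subunit gene Jun at chr4:95076274-95076742, was intergenic, 24286 bp from the TSS, and scored 3.95 without DOX and 53.1, 49.5, 52.3, 32.4 and 38.0 in skin. A SOX9+AFOS peak lay 250 bp from it.

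Lists of genes with a role in skin held few members, counted by the nearest TSS of a protein-coding gene, and are read beside the 2.60% of all noDOX regions. Among 20 epidermal transcription factors, 4 of 284 noDOX regions were members (1.41%), near Ehf, Gata3, Klf5 and Maf. The Gata3 member, chr2:9374313-9374452, was 504217 bp from the gene of this epidermal factor, scored 3.07 without DOX and 17.6, 29.1, 9.14, 9.13 and 12.7 in skin, and held AP1, GATA and SP/KLF words. For the AP1 genes it was 2 of 73 (2.74%), near Jun and Fosl2, and for basal adhesion genes 2 of 131 (1.53%), in introns of Dst, the hemidesmosome linker, and Itga2, a collagen integrin. No member was nearest to any of 15 suprabasal genes (31 noDOX regions) or 10 SWI/SNF and MLL genes (52 noDOX regions). The EGF receptor list had 1 of 100, in Nrg1, a ligand of that receptor family, and the TGF-beta and BMP list 3 of 166 (1.81%), near Tgfb2 and Inhba. The Tgfb2 member scored 8.25 without DOX and had skin peaks only at W2 (6.35), W6 (10.6) and W12 (14.6).

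Higher counts stood in 4 lists. Notch genes had 8 of 129 (6.20%), follicle genes 10 of 179 (5.59%), WNT genes 6 of 101 (5.94%) and desmosome and junction genes 7 of 154 (4.55%). These are small counts near a few genes, and no list was tested or set at equal noDOX score. In the Notch list, 4 members lay nearest to Jag1, the Notch ligand, 3 to Hes1, a Notch target and repressor, and 1 in an intron of Notch2. At Hes1 the member chr16:30145576-30145854 scored 4.29 without DOX and 13.2, 11.0, 9.69, 9.58 and 14.1 in skin, whereas the member chr16:30009705-30009866 scored 3.01, then 10.9 at D0 and 6.87 at W1, had no peak at W2 or W6, and scored 5.79 at W12. Of the 4 Jag1 members, 1 had a peak in all 5 skin lists (3.37 to 7.12) and 2 had no skin peak. The desmosome and junction members included those near Pkp1, Pkp3, Dsp, Dsc3 and Perp. The Pkp1 member, in an intron of this plakophilin gene at chr1:135902378-135902760, scored 5.36 without DOX and 13.2, 15.6, 7.74, 6.71 and 9.81 in skin, and held the AP1 word.

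The follicle members were found near Sox9 itself, Nfib, Tcf7l1, Tcf7l2, Lgr5, Runx1, Cd34 and Barx2. The Nfib member, in an intron of this follicle stem cell factor at chr4:82543158-82543314, scored 3.79 without DOX and 29.5, 32.5, 25.8, 17.4 and 20.1 in skin. Both members near Sox9 were intergenic. The closer, chr11:112856930-112857235, lay 74859 bp from the TSS and scored 5.07 without DOX and 10.7, 7.40, 7.38, 3.92 and 3.79 in skin. The farther, chr11:112360968-112361292, lay 421094 bp away and scored 4.04 without DOX, with skin peaks at W2 (3.97) and W6 (4.96) and none at D0, W1 or W12. The members near Runx1 (3.09), Cd34 (3.05) and Barx2 (3.07) had no skin peak in any list. In the WNT list 3 members were nearest to Fzd10, a WNT receptor, and 1 each to Ctnnb1, Wnt3a and Wnt5a. The strongest Fzd10 member, chr5:128545253-128545582, scored 9.04 without DOX, 6.70 at D0, 3.19 at W1 and 6.56 at W6. The Ctnnb1 member, in an intron of the β-catenin gene at chr9:120936454-120936617, scored 3.99 and had no skin peak.

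Members were spread over many genes. In all, 1166 genes were the nearest to at least 1 member, 1010 of them to exactly 1. The genes with 4 or more members were Flrt2, Foxp1, Frmd4a and Pkdcc with 5 each, and Jag1 and Fyb2 with 4. Among these 6 genes, Fyb2 was the one whose noDOX regions were all members, 4 of 4, on chromosome 4 between positions 104918121 and 104936335 and all in introns. They scored 3.72, 5.29, 3.07 and 5.08 without DOX, and the peaks of the second and the fourth were also present at D0, at 11.3 and 20.1. The nearest arm peak was 25877 bp or more away. By comparison, the 5 Flrt2 members (of 34 noDOX regions) and the 5 Pkdcc members (of 15) had no skin peak in any of the 5 lists. Foxp1, a forkhead repressor, was the nearest gene of 62 noDOX regions, and its 5 members lay in introns. Of these, 1 had a D0 peak, at 11.8.

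Most members were distal, as were most noDOX regions. The centre of the peak was intergenic in 712 (52.2%), in an intron in 542 (39.7%), in a UTR exon in 69 (5.06%) and in a coding exon in 41 (3.01%). Over all noDOX regions these shares were 42.7%, 43.8%, 9.40% and 4.10%. At a noDOX score of 3 to 4 the intergenic share was 50.7% of members and 46.2% of other regions. A TSS of a protein-coding gene lay within 1 kb of 127 members, 9.31% (7.88 to 11.0%), against 22.1% of the other noDOX regions, and the median distance was 33118 bp against 16724 bp. At a noDOX score of 3 to 4 the order was the other way, with 9.07% of members (7.29 to 11.2%) and 6.25% of other regions (5.62 to 6.94%) within 1 kb. Regions closed in 5 arms had 7.30% there (5.89 to 9.01%). The intervals of members and others overlapped at 4 to 5 (9.85% against 6.95%), 5 to 7 (8.44% against 8.25%) and 7 to 10 (11.5% against 11.8%). Of the 127 promoter members, 78 (61.4%) had a D0 peak, against 94.4% of the other promoter regions. With a score under 5 these shares were 57.9% and 64.1%, with overlapping intervals.

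The strongest promoter members, after Gm14418 and Cftr, lay at Zfp931 (8.55), Ptger3 (8.23), Art4 (7.84), and Ccl27a and Gm45783 (both 7.64). At Ccl27a, which encodes a chemokine that keratinocytes make to attract skin T cells, the member chr4:41770275-41770613 scored 7.64 without DOX and 23.8, 8.37, 7.01, 4.26 and 30.2 from D0 to W12. At Ptger3, a prostaglandin receptor, the member spanned 1098 bp and scored 22.6, 10.3, 12.8, 16.9 and 18.4 in skin. The gaps to the nearest arm peak were 13868 and 6226 bp. These genes were chosen after their values were seen.

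Most members had no arm peak within 1 kb, but most had an arm peak within 10000 bp. The rule excluded overlap with arm peaks, so a gap at every member was fixed by it. The smallest gap between a member and a peak of any arm was 46 bp, and the median was 5530 bp. An arm peak lay within 500 bp of 83 members (6.09%) and within 1 kb of 188 (13.8%). Such a peak lay within 5000 bp of 646 members (47.4%) and within 10000 bp of 906 (66.4%). The nearest arm peak belonged to ΔTA-SOX9 for 385 members and to ΔHMG-SOX9 for 84. A further noDOX peak lay within 1 kb of 129 members (9.46%), with a median gap of 8370 bp. These gaps and those to arm peaks were not set beside those of other noDOX regions. They do not show whether members were more isolated. At 37 members no arm had a peak within 100 kb, and 16 of these were open in D0 skin, beside 33.9% of all members and 61.0% of all noDOX regions.

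The DNA words in members were close to those of other weak noDOX regions. AP1 stood in the central window of 355 members, 26.0% (23.8 to 28.4%), against 23.6% of all noDOX regions. RUNX was found in 16.3% against 15.5%, TEAD in 16.4% against 15.3%, C/EBP in 10.4% against 8.69%, SOX in 4.33% against 3.96%, E-box in 3.37% against 3.81%, CTCF in 2.49% against 2.09%, TP63 in 1.32% against 1.02% and GRHL in 1.10% against 1.33%. SP/KLF (8.94% against 16.3%) and ETS (1.10% against 3.14%), both words of promoters, were lower, and GATA (11.3% against 8.02%) was higher in members. At a noDOX score of 3 to 4 the members and the other regions had 25.4% and 26.4% for AP1, 9.31% and 8.52% for SP/KLF and 0.858% and 1.17% for ETS, with overlapping intervals. GATA kept part of its difference there, at 12.1% (10.1 to 14.6%) against 9.31% (8.55 to 10.1%), and the intervals just overlapped. At 4 to 5 it was 10.7% against 9.47% and at 5 to 7 10.4% against 9.54%, and at 7 to 10 the order was reversed (3 of 52 members against 8.46%), with overlapping intervals in each of these bands. Regions closed in 5 arms had GATA in 10.4% at a score of 3 to 4.

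**Figure D5:**
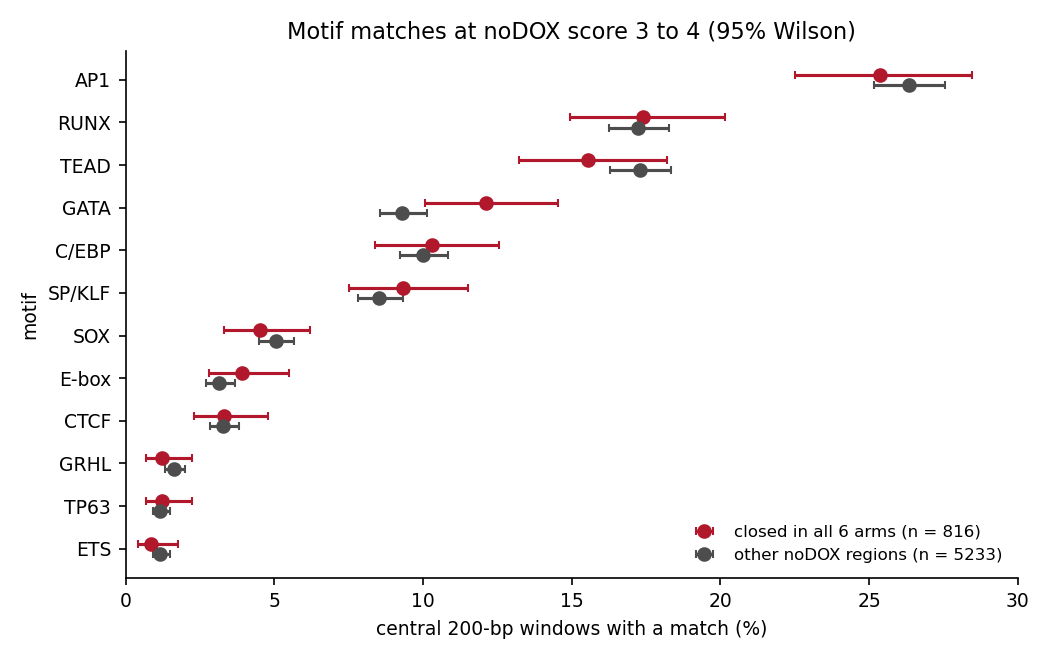
Percent of central 200-bp windows with a match to each motif at a noDOX score of 3 to 4, for 816 members (red) and 5233 other noDOX regions (grey), with 95% Wilson intervals. The intervals of members and others overlap for all 12 motifs, and GATA (12.1% against 9.31%) is the farthest apart.

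Within the members, the AP1 word went with the skin lists in an uneven way. It was found in 22.9% (19.3 to 26.9%) of members with a D0 peak, 33.8% (28.6 to 39.5%) of those whose first skin peak came in a later list, and 24.8% (21.5 to 28.3%) of those with no skin peak. The other noDOX regions had 17.7%, 33.6% and 32.5% in the same 3 classes. Members without a skin peak thus held the AP1 word less often than other noDOX regions without one, and the intervals did not overlap (31.5 to 33.4% in the latter). The median noDOX scores of the 2 sets were 3.64 and 5.82, and the part of this difference in score was not tested.

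The cells carried the marks of keratinocytes in all 7 lists. A peak lay within 1 kb of a TSS of Krt5, Krt14, Trp63, Itga6, Itgb4 and Col17a1 in each list (6 of 6). Of 5 fibroblast markers, Pdgfra and Col1a1 had a peak in noDOX and in every arm except Col1a1 in SOX9+ARID1a, while Col3a1, Dcn and Twist2 had none in any list. Of 5 melanocyte markers, noDOX had none and the arms 1 to 3, with Pmel present in all 6 arms. The arm with 3 was SOX9+AFOS, which alone also had peaks at Dct (17.7) and Mlana (4.49). Kdr was the 1 of 3 endothelial markers with a noDOX peak, and the arms had 0 or 1. The 4 immune and 2 Merkel cell markers had none throughout. No member lay within 1 kb of a TSS of any of these genes. In these bulk cultures a smaller share of cells with an open region and a less open region in every cell cannot be told apart.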

How the data were processed

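Paired-end ATAC-seq reads were, per the study's methods, aligned by the authors to GRCm38 with PEPATAC, replicate alignments were merged, and peaks were called with MACS2 (2.1.1 in the submitters' processing notes) with duplicates kept. The deposited values used here are 1 normalised peak score per peak, cut by the authors at 3. Read depth is unknown, since the files give no counts. Names of peaks in the lists with AFOS or ARID1a mention fragments as input, which those of the other culture lists do not, and whether calling differed was not tested.

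From these 12 lists, regions were merged at 1 bp overlap, and each was represented by its highest-scoring noDOX peak. Skin overlap was 1 bp. Nearest TSSs came from protein-coding genes of GENCODE M21, and motifs were sought in the central 200 bp with Python 3.11.15, pandas 2.3.3 and SciPy 1.17.1. Scripts were tested on simulated lists. Wilson intervals (95%) were given for shares. They reflect counting error alone, as regions are not replicates. The members and gene lists were chosen with earlier results of these data known. Named were the 20 members highest in noDOX score, the 10 highest in D0 score, members nearest to genes of the fixed lists and genes with 4 or more members; others are stated as chosen later. Alternatives changed the score minimum, overlap, list length, arms, window and TSS distance.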

Additional observations from a re-analysis of the deposited data

How the results depend on the processing

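The number of regions closed in all 6 arms was 1364 and stayed within 1.5 times of it, at 987 to 1827, under 9 of 14 alternatives. It was 213 with a noDOX score of at least 5, 7 with at least 10, 2178 without SOX9+ARID1a, 4194 with WT-SOX9, ΔHMG-SOX9 and ΔTA-SOX9 as the only arms and 3275 with AFOS, SOX9+AFOS and SOX9+ARID1a as the only arms; fewer arms to be absent from, or fewer peaks, fix these directions. With a score of at least 5 required in all 7 lists the count was 987, of which 213 were members as reported. With lists cut to 49458 peaks each it was 1441, of which 831 were.

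The share of members with a D0 peak (33.9%) moved beyond its interval to 44.5% with a score of at least 5 in all lists, 39.0% and 57.1% with a noDOX score of at least 5 and 10, 37.1% when an arm peak had to cover 50% of the noDOX peak, 36.5% with lists of equal length and 42.0% with the last 3 arms alone. The AP1 share (26.0%) moved to 0 of 7 regions at a noDOX score of at least 10, 23.0% with the 50% overlap, 29.4% with equal lists, 21.8% without SOX9+AFOS, 30.2% without SOX9+ARID1a and 33.4% over the whole peak. The share within 1 kb of a TSS (9.31%) moved to 14.3% at a noDOX score of at least 10, 12.6% without WT-SOX9, 6.57% without SOX9+ARID1a, 5.13% and 14.7% with the first and the last 3 arms alone, and 17.4% at 5 kb. The cause was not tested. No paired analysis was possible because both replicates of a group were pooled into 1 list before peaks were called, and for the same reason no replicate could be left out. Unknown read depth limits every absence: a missing peak is a score under 3, not closed chromatin shown.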

Other observations

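Members made up between 1.75% of the noDOX regions on chromosome 7 (55 of 3145) and 3.31% on chromosomes 2 and 13 (155 of 4687 and 69 of 2083), and 23 pairs of neighbouring members had centres less than 10 kb apart. Several promoter members lay at genes that have similar copies nearby, among them Zfp931, Gm14418 and Gm14399 on chromosome 2, Gm3604 on chromosome 13 and Rnaset2a and Dynlt1c on chromosome 17, which were picked after their values were seen. Whether reads there were shared between copies was not tested. The Gm14399 member, centred 175 bp from a TSS, scored 4.81 without DOX, 27.9 at D0 and 7.40, 5.36, 4.26 and 7.66 from W1 to W12, and the nearest peak of any arm was 626233 bp away. The Gm3604 member scored 6.46 without DOX and 23.0, 26.9, 22.9, 16.7 and 15.8 in skin. At Rnaset2a both members near the gene were open in all 5 skin lists, at D0 scores of 19.5 and 14.7.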
